A study of Homo sapiens with 2 samples.

Results

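The genes described here are the 237 protein-coding RefSeq genes whose symbol is ZNF followed by a number and which lie off chromosome 19, out of 20037 protein-coding genes placed on chromosomes 1 to 22, X and Y. They were chosen by symbol and position, and no measured value of a gene entered the rule, but earlier results of these data were known. Their counterparts on chromosome 19, 240 genes named in the same way, are used only for comparison. The assay was ATAC-seq, which uses a transposase to insert sequencing tags into open chromatin. The cells were of the prostate cancer line C42 (C4-2), a castration-resistant derivative of LNCaP, grown in RPMI medium with serum. The control group is 1 library from cells with a control shRNA (CTR), and the other group is 1 library from cells with an shRNA against WHSC1 (shWHSC1). WHSC1, also called NSD2, encodes a methyltransferase of histone H3, and the series as a whole concerns it in prostate cancer and immune infiltration. Both groups share the line and the medium, the labels do not name the shRNA sequence or a clone, and the peak lists hold no check of the knockdown.

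Zinc finger proteins of this family carry arrays of C2H2 fingers, each a short fold held by a zinc ion, with which most of them bind DNA. Many also carry a KRAB domain, which recruits the corepressor TRIM28 and, with it, enzymes that lay down repressive chromatin, often over transposable elements. Others carry a SCAN or BTB domain for pairing, or act as activators, in RNA processing or in ribosome assembly. The KRAB members arose largely by tandem duplication, so many lie in clusters of related genes.

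The authors deposited 1 list of broad peaks per library, on GRCh38, with 2010 peaks for the control and 2418 for the knockdown. Each peak has the authors' fold enrichment over local background and a −log10 q from the peak caller, where q is the adjusted p-value of the peak. Most peaks were weak: only 9.5% of control and 9.88% of knockdown peaks had a −log10 q of at least 5. The lists give no read counts, and the depth is unknown. With 1 library per group no difference can be set against replicate spread, no p-value is given, and each statement on control and knockdown compares these 2 libraries. Intervals are 95% exact (Clopper-Pearson) intervals and cover the counting of genes only. Of 11 luminal prostate markers, ACP3 and STEAP2 had a peak in both libraries (18.2%, interval 2.28 to 51.8%), and the other 9, KLK3 among them, had none. KLK3 lies on chromosome 19, where only 1 (control) and 12 (knockdown) of 1451 protein-coding genes had a peak. None of 6 markers of leukocytes, stroma, endothelium and basal cells had one. Where no peak is listed, the gene was not called at the threshold used, and its accessibility is not known.

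A gene counts as having a peak where one lies in the gene or within 3 kb of either end. Promoter sequences of 5 members with a peak over the start are printed first, since the results below turn on peaks at such starts. They come from RefSeq (GRCh38.p14), which gave a promoter for 195 of the 237 members, and span 250 bases before to 50 bases after the start, in the direction of the gene. ZNF695 (chr1:247008008-247008307, minus strand) and ZNF717 (chr3:75785500-75785799, minus strand) had a peak in both libraries. ZNF107 (chr7:64665883-64666182, plus strand) had one in the control alone, and ZNF143 (chr11:9460762-9461061, plus strand) in the knockdown alone. ZNF672 (chr1:248837974-248838273, plus strand) had the widest peaks of the 5 in both libraries. Capitals mark matches on either strand to 10 motifs of promoter-binding factors. They were GCGCANGCG for NRF1, CCGGAAG for ETS factors, TGACGTCA for CREB-like factors (CRE), AAGATGGC for YY1, CTACANTTC for ZNF143, GGGCGG for the GC box, CCAAT for nuclear factor Y, CACGTG for the E-box, CTCGCGAG for BANP and TATAAA for the core promoter.
ZNF695: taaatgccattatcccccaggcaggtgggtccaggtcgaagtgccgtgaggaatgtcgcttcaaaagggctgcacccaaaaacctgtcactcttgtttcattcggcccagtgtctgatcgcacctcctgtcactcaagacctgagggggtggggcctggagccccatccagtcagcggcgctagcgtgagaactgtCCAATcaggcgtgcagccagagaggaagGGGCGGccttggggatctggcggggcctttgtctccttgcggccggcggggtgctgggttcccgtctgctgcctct
ZNF717: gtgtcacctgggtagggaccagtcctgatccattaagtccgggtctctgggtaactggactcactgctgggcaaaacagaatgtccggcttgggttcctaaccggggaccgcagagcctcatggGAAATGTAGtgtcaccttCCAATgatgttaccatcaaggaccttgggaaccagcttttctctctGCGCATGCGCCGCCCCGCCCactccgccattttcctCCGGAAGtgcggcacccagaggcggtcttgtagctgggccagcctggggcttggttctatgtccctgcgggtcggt
ZNF107: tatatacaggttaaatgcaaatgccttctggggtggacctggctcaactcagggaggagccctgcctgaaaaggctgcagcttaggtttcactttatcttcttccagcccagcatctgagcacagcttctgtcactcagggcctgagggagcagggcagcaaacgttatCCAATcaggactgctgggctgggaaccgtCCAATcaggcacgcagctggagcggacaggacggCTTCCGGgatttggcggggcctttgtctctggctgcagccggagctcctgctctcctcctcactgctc
ZNF143: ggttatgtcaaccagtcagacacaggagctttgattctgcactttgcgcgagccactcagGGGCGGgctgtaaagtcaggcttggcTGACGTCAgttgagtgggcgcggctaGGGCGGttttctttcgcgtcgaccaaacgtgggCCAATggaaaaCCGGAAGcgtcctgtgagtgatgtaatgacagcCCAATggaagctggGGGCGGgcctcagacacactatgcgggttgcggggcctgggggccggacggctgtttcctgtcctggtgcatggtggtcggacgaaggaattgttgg
ZNF672: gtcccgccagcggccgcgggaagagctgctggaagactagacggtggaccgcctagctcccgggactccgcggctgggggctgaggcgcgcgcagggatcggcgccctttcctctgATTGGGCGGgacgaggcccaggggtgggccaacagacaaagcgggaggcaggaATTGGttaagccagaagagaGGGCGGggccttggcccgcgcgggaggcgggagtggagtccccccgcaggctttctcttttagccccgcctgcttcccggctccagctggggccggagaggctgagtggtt

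In the ZNF143 promoter a CRE match began 164 bases before the start and an ETS match 94 bases before it, beside 3 GC boxes and 2 CCAAT matches. ZNF717 held a CCAAT match, an ETS match and the only ZNF143 match of the 5, and its NRF1 match, which reads on both strands, overlapped the first of 2 GC boxes. ZNF672 held 2 GC boxes and 2 inverted CCAAT matches, of which 1 overlapped a GC box. ZNF695 had a CCAAT match 54 bases before the start and ZNF107 one 52 bases before it and another further upstream. A match describes letters only and is no evidence of binding.

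Peaks were found at 28 of the 237 members in the control (11.8%, interval 8.0 to 16.6%) and at 35 in the knockdown (14.8%, interval 10.5 to 19.9%). Over all protein-coding genes the shares were 7.64% and 9.26%. Against the 18349 other genes off chromosome 19, with 8.18% and 9.86%, the control share lay just inside the counting interval of the members and the knockdown share just below it. In all, 18 members had a peak in both libraries (7.59%, against 4.95% of all protein-coding genes), 10 in the control only (4.22%, against 2.69%) and 17 in the knockdown only (7.17%, against 4.32%). Among the other genes off chromosome 19 these shares were 5.30%, 2.88% and 4.56%. The other 192 members had none. The knockdown list is also the longer, and with equal numbers of peaks per list the counts were 28 and 30 (11.8% and 12.7%, against 7.64% and 8.07% of all genes).

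The members' share exceeded that of all genes mainly when weak peaks were counted. With peaks of a −log10 q of at least 2, 11 members (4.64%) had one in the control, against 4.36% of all genes, and 16 (6.75%) in the knockdown, against 5.63%. At a minimum of 3 the shares were 2.11% and 2.18% in the control, and 2.95% and 2.91% in the knockdown. The other genes off chromosome 19 had 4.70% and 6.04% at 2, and 2.34% and 3.14% at 3. Of these, only the knockdown share at 2 was lower than that of the members. At a minimum of 5 only ZNF654 remained in the control (0.422%, against 0.579% of all genes), and ZNF654, ZNF672 and ZNF143 in the knockdown (1.27%, against 0.739%). From a minimum of 2 upward, the share over all genes lay within the members' counting interval in both libraries.

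**Figure D1:**
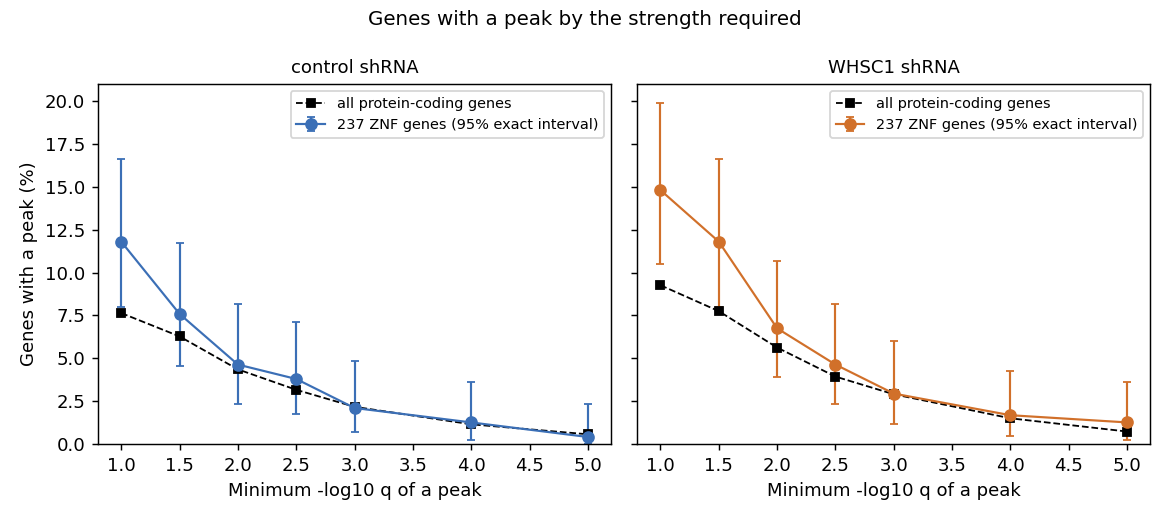
Share of genes with a peak (%, vertical axis) against the minimum −log10 q required of a peak (horizontal axis), for the 237 ZNF members (circles, with 95% exact intervals) and all protein-coding genes (squares), control on the left and knockdown on the right. The members start at 11.8% and 14.8%, above 7.64% and 9.26%, and meet the line of all genes at a minimum of 3.

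The strongest peak of any member was at ZNF654, with 4.76-fold enrichment in the control (chr3:88058713-88059264, −log10 q 5.52) and 5.45-fold in the knockdown (chr3:88058700-88059254, −log10 q 9.5). It was the highest value of the members in both libraries, and the 2 peaks overlapped over 542 bp. The same peaks also lie at CGGBP1, the gene of a protein that binds CGG repeats, and at LOC128031834, so they cannot be assigned to ZNF654 alone.

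Members with a known role outside KRAB repression were among the others with a peak in both libraries. ZNF451, a ligase for the modifier SUMO, had 3.53-fold enrichment in the control (−log10 q 1.44) and 4.24-fold in the knockdown (−log10 q 3.70). ZNF706, a very small zinc finger protein on chromosome 8, had a peak of 4.11-fold in the control and of 3.18-fold in the knockdown. ZNF326, a subunit of a complex that couples transcript elongation to splicing, had 3.08-fold and 3.46-fold. ZNF622, a factor of ribosome assembly, had 3.26-fold and 3.22-fold, both weak calls (−log10 q 1.12 and 1.38). ZNF277 had 3.68-fold and 3.59-fold, with peaks that also lie at DOCK4. Thus ZNF451 and ZNF326 had the higher fold in the knockdown, and ZNF706, ZNF622 and ZNF277 in the control.

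ZNF672 had the widest peaks among all members, 1116 bp in the control (3.54-fold, −log10 q 4.82) and 1144 bp in the knockdown (4.05-fold, −log10 q 8.11), against a median width over the members' peaks of 380 bp and 390 bp. The knockdown peak contained the whole control peak. ZNF695 had 4.59-fold enrichment in the control (−log10 q 4.59) against 3.21-fold in the knockdown (−log10 q 1.54), the widest gap of the members with a peak in both libraries. ZNF717 had 4.04-fold and 3.45-fold, ZNF669 3.91-fold and 3.56-fold, and ZNF189 3.78-fold and 3.35-fold, each higher in the control. ZNF189 shares its peaks with MRPL50, a mitochondrial ribosomal protein gene. The neighbours ZNF25 and ZNF248 on chromosome 10 were both higher in the knockdown, with 3.83-fold and 4.04-fold at ZNF25 and 3.51-fold and 3.86-fold at ZNF248.

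ZNF487 and ZNF800 had a peak over the start in both libraries and a further peak inside the gene in the knockdown, 18.4 kb and 5.12 kb from the nearer end. ZNF215 differed from the rest: its control peaks lay inside the gene, 9.82 kb and 17.0 kb from an end (3.35-fold and 3.32-fold), and its knockdown peak lay 32 bp from its start (3.48-fold). It was the only member with a peak in both libraries whose peaks did not overlap. In the 17 others the overlap ran from 61 bp to 1116 bp, with a median of 258 bp, and overlap was not counted over all genes. The shortest, 61 bp, was at ZNF768 and ZNF747 on chromosome 16, which overlap each other and share 1 peak per library (control 3.52-fold, knockdown 2.98-fold). It lies inside ZNF768 and 2590 bp (control) or 2823 bp (knockdown) from an end of ZNF747, the farthest counted at an end. The nearest peaks not counted lay 10931 bp from ZNF692 in the control and 6419 bp from ZNF736 in the knockdown.

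Neither library had the higher fold throughout: it was the control for 10 of the 18 members with a peak in both and the knockdown for 8. Over all 991 genes with a peak in both, the knockdown had the higher fold in 42.6%. Folds are each library's own ratio to local background and were not scaled between libraries. The members' median fold was 3.53 (control) and 3.39 (knockdown), against 3.63 and 3.50 over all genes with a peak, and their range was 2.91 to 4.76 and 2.91 to 5.45, against 2.81 to 11.2 and 2.6 to 13.1.

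**Figure D2:**
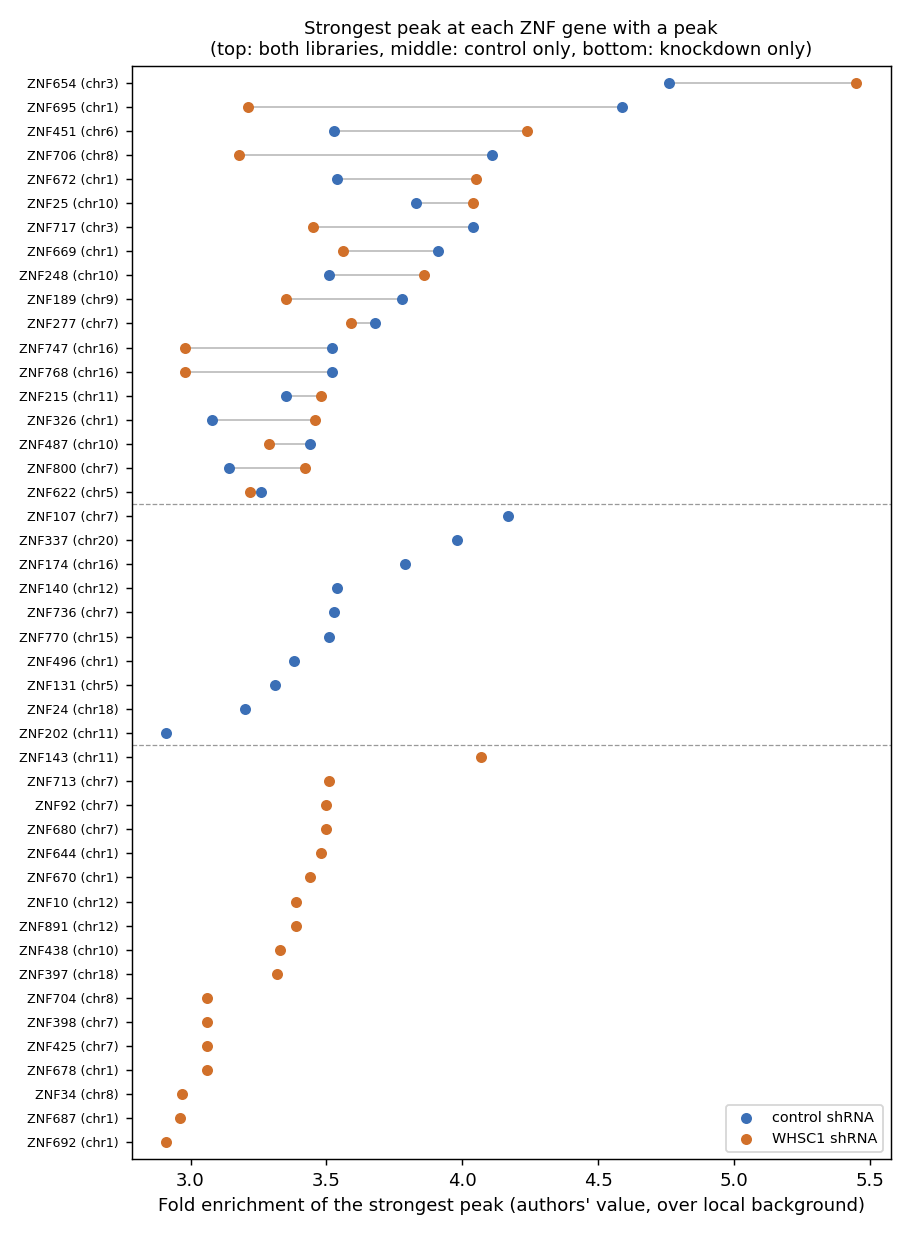
Authors' fold enrichment (horizontal axis, ratio to local background) of the strongest peak at each of the 45 members with a peak (vertical axis, with chromosome), control in blue and knockdown in orange, a grey line joining the 2 values of a member. The 18 members at the top have both values, the 10 in the middle the control only and the 17 at the bottom the knockdown only; ZNF654 stands highest with 4.76 and 5.45.

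Among the 10 members with a peak in the control only, ZNF107 had the highest fold, 4.17 (−log10 q 3.10), followed by ZNF337 with 3.98 and ZNF174, a SCAN protein, with 3.79. The ZNF174 peak also lies at ZSCAN32. ZNF140, a KRAB repressor, had 3.54-fold enrichment, ZNF736 3.53-fold, ZNF770 3.51-fold and ZNF131, a BTB protein, 3.31-fold. ZNF496, which is also known as an interactor of NSD1, a relative of WHSC1, had 3.38-fold (−log10 q 1.95). The last 2 were the SCAN genes ZNF24 with 3.20-fold and ZNF202 with 2.91-fold, the weakest call (−log10 q 1.04). The median −log10 q of the 10 was 1.77, against 2.11 in the control for the members with a peak in both.

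Of the 17 members with a peak in the knockdown only, ZNF143 was the strongest. ZNF143, an activator of small nuclear RNA and many protein-coding promoters, had 4.07-fold enrichment over its start (chr11:9460671-9461349, −log10 q 5.08), and the nearest control peak was 112 kb away. No other member had a peak of a −log10 q of at least 5 in one library and no peak in the other. ZNF713 had 3.51-fold enrichment, ZNF92 and ZNF680 3.50-fold each, ZNF644, a partner of the histone H3 lysine methyltransferases EHMT1 and EHMT2, 3.48-fold, and ZNF670 3.44-fold. ZNF10, whose KRAB domain is a standard tool for silencing, shared a 3.39-fold peak with ZNF891, and ZNF425 shared a 3.06-fold peak with ZNF398; both pairs lie head to head. ZNF438, ZNF397, ZNF678, ZNF704, ZNF34, ZNF687 and ZNF692 had between 2.91-fold and 3.33-fold, with a −log10 q from 1.2 at ZNF678 to 2.28 at ZNF692. The ZNF34 peak also lies at RPL8, and that of ZNF704 lies only inside the gene, 10.4 kb from an end. The median −log10 q of the 17 was 1.87, against 2.2 in the knockdown for the members with a peak in both.

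The members' peaks lay mostly at starts. The strand was known for 26 of the members with a control peak and 31 of those with a knockdown peak, and in 22 (84.6%) and 29 (93.5%) of them a peak lay within 500 bp of the start. For all genes with a peak and a known start the shares were 75% and 73.6%. Of the 195 members with a known start, 11.3% and 14.9% had such a peak, against 5.84% and 7.15% of all genes with a known start, chromosome 19 included. In the control 12 members, and in the knockdown 24, had a peak that covered the start itself. The same count was not made over all genes, and the knockdown list is the longer. The peaks of ZNF140, ZNF174, ZNF189, ZNF277, ZNF451 and ZNF770 lay upstream of the start in each library that had one, and those of ZNF496 and ZNF736 downstream. The start used for ZNF140 lies inside its gene span, and its peak covers the end of that span. At ZNF24 the peak lay 939 bp upstream.

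**Figure D3:**
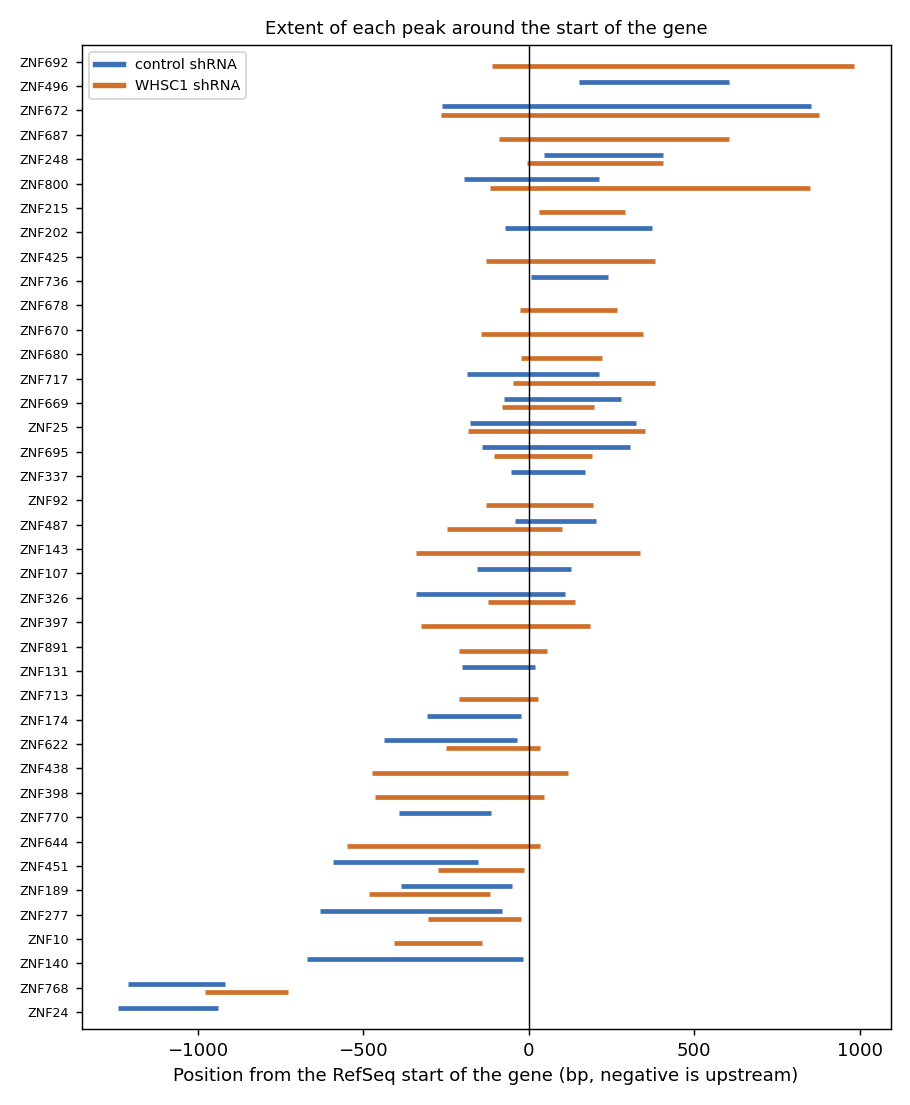
Extent of each peak (bars, control in blue, knockdown in orange) relative to the RefSeq start of the gene (horizontal axis, bp, negative is upstream) for the 40 members (vertical axis) with a known start and a peak within 1500 bp of it. Most bars touch or flank the start, and the peaks of ZNF768 and ZNF24 sit farther upstream of it. The start used for ZNF768 lies inside the gene span, and so do its peaks. Not drawn are 6 peaks beyond 1500 bp.

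By chromosome, members with a peak were most numerous on chromosome 1 in both libraries. There 5 of 20 members carried a control peak (25%, interval 8.66 to 49.1%) and 9 a knockdown peak (45.0%, interval 23.1 to 68.5%), against 8.23% and 10.9% of the other protein-coding genes of that chromosome. On chromosome 7, with 34 members the largest set, 4 and 7 had one (11.8% and 20.6%, against 13.9% and 15.5%). On chromosome 16, where few other genes had a peak (2.91% and 1.70%), 3 and 2 of 29 members did (10.3% and 6.90%). On chromosome 3, where other genes had 18.1% and 18.9%, only ZNF654 and ZNF717 of 18 members had one. None of the 7 members on chromosome 2, 7 on chromosome 4, 9 on chromosome 17 and 10 on chromosome X had a peak in either library. Of the other genes of these chromosomes, 10.7%, 21.1%, 1.81% and 3.34% had one, so on chromosomes 17 and X peaks were rare in general. Members exceeded the other genes on 10 of 20 chromosomes in the control and on 8 in the knockdown, and lay below them on 9 and 11; on chromosome 22 neither had a peak. On chromosome 19 0 of the 240 ZNF genes had a peak in each library (the exact interval reaches 1.53%, and 3 counts of 240 are 1.25%), and only 1 and 12 of all 1451 genes there had one.

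**Figure D4:**
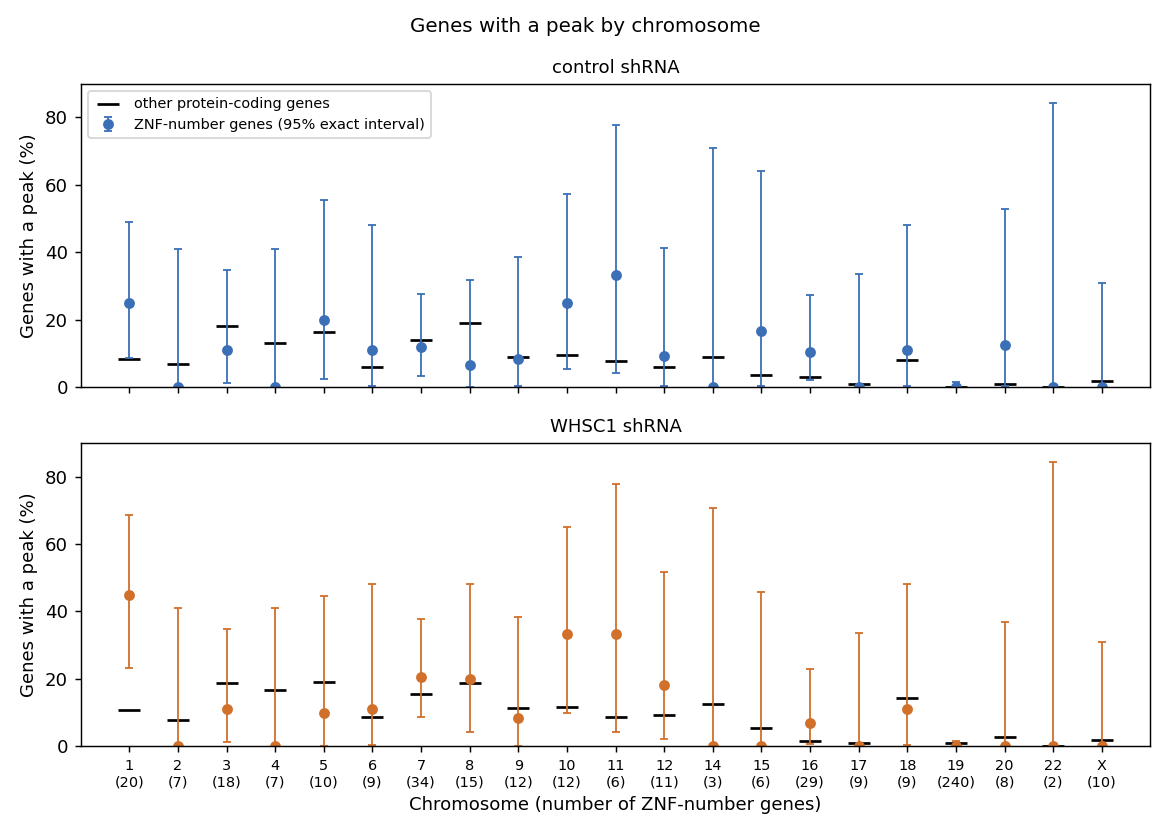
Share of genes with a peak (%, vertical axis) by chromosome (horizontal axis, number of ZNF genes in parentheses) for ZNF-number genes (circles, with 95% exact intervals) and the other protein-coding genes (black bars), control above and knockdown below. Chromosome 1 stands out in the knockdown with 45.0% against 10.9%, most intervals are wide, and chromosome 19 is at 0%.

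Peaks in these libraries are more frequent where genes are sparse, so the members were set beside the other genes off chromosome 19 with as many protein-coding neighbours within 500 kb (in 10 classes). At the shares of those genes, 16.1 members with a peak would be counted in the control and 19.7 in the knockdown, against 28 and 35 observed. Weighting by chromosome in place of density gave 21.9 and 25.4. Without the 20 members of chromosome 1, the chromosome weighting gave 20.2 and 23.2 for the other 217 members, against 23 and 26 observed, and the density weighting 14.9 and 18.1. Weighting the 195 members with a promoter sequence by its GC content gave 17.7 and 22.0, against 26 and 31 observed. The weightings describe these libraries and are no test. In the denser classes, with 13 to 75 neighbours, 6.35% and 7.14% of 126 members had a peak, against 2.23% and 2.88% of other genes. In the sparser ones, with 0 to 12 neighbours, the shares were 18.0% and 23.4% of 111 members, against 12.7% and 15.2%.

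Clusters were defined as runs of members no more than 500 kb apart, which put 136 members in 35 clusters and left 101 alone. In all, 25 members in clusters (18.4%, interval 12.3 to 25.9%) and 20 lone members (19.8%, interval 12.5 to 28.9%) had a peak in either library. The intervals overlap, and both contain the share of other protein-coding genes off chromosome 19 with a peak in either library, 12.7%. Of the 35 clusters, 12 held a member with a peak and 8 held at least 2. The same count was not made for clusters of other genes. At the end of the long arm of chromosome 1 (246945546 to 247331867), 4 of 5 members had a peak: ZNF695 and ZNF669 in both libraries, ZNF670 in the knockdown only, ZNF496 in the control only and ZNF124 in none. A little further on, ZNF672 and its neighbour ZNF692 both had one. On chromosome 10 both members of a pair, ZNF248 and ZNF25, had peaks in both libraries. On chromosome 12, ZNF140, ZNF891 and ZNF10 of 7 members had one, each in a single library, and on chromosome 18 ZNF397 and ZNF24 of 3. In contrast, 7 members at 44431705 to 44737083 on chromosome 3, 5 at 53321 to 499156 on chromosome 4 and 5 at 47370578 to 48071640 on chromosome X had none. Of the other genes of these chromosomes, 24.8%, 21.1% and 3.34% had a peak in either library. The cluster of 13 on chromosome 16 (30378312 to 31917357) had only the peak that ZNF768 and ZNF747 share, and that of 10 on chromosome 7 (149069641 to 149867479) only the one of ZNF425 and ZNF398.

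In the cluster of 11 on chromosome 7 (63998849 to 65401136), 4 members had a peak, each in a single library: ZNF736 and ZNF107 in the control, ZNF680 and ZNF92 in the knockdown. Their promoters, with that of ZNF695, share an unbroken run of 18 bases near the start of the gene. It was found as the longest run common to any pair of the 5 printed promoters, at ZNF695 and ZNF107, so it was chosen from genes with a peak. The stretches around it are shown because these 5 are the only members with the run. They are ZNF695 (chr1:247008017-247008116, minus strand), ZNF736 (chr7:64313926-64314010, plus strand), ZNF680 (chr7:64563035-64563134, minus strand), ZNF107 (chr7:64666076-64666175, plus strand) and ZNF92 (chr7:65373792-65373891, plus strand), with the run in capitals.
ZNF695: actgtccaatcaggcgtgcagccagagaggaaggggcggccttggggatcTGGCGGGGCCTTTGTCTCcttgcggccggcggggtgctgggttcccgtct
ZNF736: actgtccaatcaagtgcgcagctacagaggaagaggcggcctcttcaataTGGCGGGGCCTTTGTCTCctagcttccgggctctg
ZNF680: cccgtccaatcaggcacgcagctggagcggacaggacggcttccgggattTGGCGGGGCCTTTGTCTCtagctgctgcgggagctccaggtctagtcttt
ZNF107: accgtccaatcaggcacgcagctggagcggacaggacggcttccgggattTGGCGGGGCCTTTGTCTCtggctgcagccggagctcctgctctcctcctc
ZNF92: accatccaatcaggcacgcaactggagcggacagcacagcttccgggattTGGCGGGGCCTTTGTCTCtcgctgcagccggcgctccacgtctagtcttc

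Of the 195 members with a promoter sequence, 5 held the run, and all 5 had a peak over it in a library, while none of the 154 members without a peak held it. Of the 5, ZNF695 and ZNF107 defined the run. ZNF736, ZNF680 and ZNF92 resemble them beyond the run, by the identities given below, so they are not independent cases. The run was also in 9 ZNF promoters of chromosome 19 and in no others of the 15842 protein-coding genes with a promoter sequence. Those 9 genes had no peak, but almost no gene of chromosome 19 had one, so they show nothing about the run. In the other 7 members of the cluster on chromosome 7 the promoter lacked the run and there was no peak. Aligned on the run without gaps, the stretches of ZNF680, ZNF107 and ZNF92 were 88.0 to 90% identical and those of ZNF695 and ZNF736 75.3%, while pairs between these sets ranged from 56.5 to 65.0%. How the authors placed reads that match near copies is not given in the sources used here. The peaks of ZNF680, ZNF107 and ZNF92 are therefore uncertain, and the part of read placement was not tested.

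Other promoter features overlapped between members with and without a peak. Members with a peak in either library had a median promoter GC content of 65.0% (41 promoters) and those without 62.2% (154 promoters), against 62.7% over all protein-coding genes, and the ranges overlapped widely (49.7 to 81.7% and 35.0 to 84.7%). The median ratio of observed to expected CpG was 0.802 and 0.819. A CCAAT match was found in 25 of the 41 promoters (61.0%) and in 39.6% of the 154, against 36.4% of all protein-coding genes. ETS matches, in 43.9% and 35.1%, were frequent in both, against 14.2% of all protein-coding genes and 44.3% of ZNF genes on chromosome 19. The GC box was found in 73.2% and 56.5%, NRF1 in 19.5% and 16.2%, and TATAAA in none of the 41 and in 5.84% of the 154. Over the 35116 promoters of the table, which include noncoding genes, the shares were 34.6% for CCAAT, 10.3% for ETS, 45.0% for the GC box, 7.52% for NRF1 and 11.5% for TATAAA. Among protein-coding genes alone the GC box was in 58.5% and TATAAA in 9.63%, and the NRF1 share lay between 7.52% and 16.2%. Other genes off chromosome 19 differed in the same direction as the members. With and without a peak, 68.0% and 56.3% of them held the GC box, and 42.9% and 34.9% CCAAT. Of the ZNF genes on chromosome 19, none of which had a peak, 69.5% held the GC box and 52.9% CCAAT. CRE, YY1, E-box and BANP matches were each in 3 or fewer of the 41 promoters.

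The motif of ZNF143, the protein of the member with the strongest knockdown-only peak, was rare in promoters at large (1.38% of all promoters, 1.70% of protein-coding genes). It was found in 5 of the 41 promoters of members with a peak (12.2%), those of ZNF717, ZNF451, ZNF277, ZNF189 and ZNF140. None of these had a peak in the knockdown only: ZNF140 had one in the control only and the others in both libraries. Among the 154 members without a peak 6 (3.90%) held it, and among ZNF genes on chromosome 19 12.4%. The counts are small, and the match says nothing of binding in these cells.

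Members with a peak had a median length of 34.5 kb and those without 22.9 kb. Other genes off chromosome 19 with a known start differed in the same direction, with 51.5 kb and 24.3 kb. The part of gene length in the members' share was not tested. Of the members' peaks, 2 in the control and 3 in the knockdown lay solely inside a member. Counting only peaks within 3 kb of an end, 26 (11%) and 33 (13.9%) members had a peak, against 6.28% and 7.52% of all genes, chromosome 19 included. Of the members' peaks, 4 of 28 in the control and 4 of 34 in the knockdown also lay at a gene that is no member.

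Of 16 genes that act with KRAB proteins in repression, 2 had a control peak (12.5%, interval 1.55 to 38.3%) and 3 a knockdown peak (18.8%, interval 4.05 to 45.6%). Both intervals contain the shares over all genes, 7.64% and 9.26%. HDAC2, a histone deacetylase, had peaks of 4.33-fold in the control and of 4.72-fold in the knockdown. CBX5, which encodes heterochromatin protein HP1 alpha, had 3.95-fold and 3.97-fold at an end it shares with HNRNPA1. ATF7IP, a partner of the methyltransferase SETDB1, had a 3.55-fold peak in the knockdown only. TRIM28, SETDB1, the HUSH subunits TASOR, MPHOSPH8 and PPHLN1, and the other 8 had none in either library. TRIM28 lies on chromosome 19, where only 1 (control) and 12 (knockdown) of 1451 protein-coding genes had a peak, so its lack of one says little.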

How the data were processed

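ATAC-seq was deposited as 1 list of broad peaks per library, and the groups follow the condition label. The submitters' processing notes name MACS2, ChIPseeker 1.22.1, Bowtie2 2.2.9, Picard 1.101, CASAVA 1.8.2 and SAMtools 1.9, and the build GRCh38. What each tool did, and any shift of reads for the transposase, removal of duplicates or placing of reads with several matches, is not given in the sources used here. The deposited fold enrichment is a ratio of pileup to local background, and the deposited −log10 p and −log10 q values and the score derived from them are the caller's. All are the authors' values per peak. Read depth is unknown.

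Genes came from a RefSeq table (GRCh38.p14). Starts and strands came from the RefSeq promoter table, which matched 195 of 237 members and 15842 of 20037 protein-coding genes. This start equalled the end of the gene span for 159 of the 195 members. Peaks were assigned to genes in or within 3 kb. Random genes had been proposed as a comparison and were replaced by shares of other genes of like density. Protein features had been planned and are not analysed here.

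The members, lists and rules were chosen with earlier results of these data known. Named were the 10 members of highest control fold that had peaks in both libraries, the 8 highest of each single library, those with a −log10 q of at least 5, those in clusters with at least 2 members with a peak, and those sharing a peak. The remaining members with a peak, ZNF124 and the run of 18 bases were added after values were seen. As alternatives, counts were repeated with a −log10 q minimum of 2 or 5, equal numbers of peaks, a distance of 1 kb, gene ends only, peaks near 1 gene only, other overlap rules, a cluster distance of 250 kb and a density window of 1000 kb. The scripts were tested on simulated data. Scripts ran in Python 3.11.15 with scipy 1.17.1, pandas 2.3.3, numpy 2.4.6 and, for figures, matplotlib 3.10.9.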

Additional observations from a re-analysis of the deposited data

How the results depend on the processing

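The required peak strength changed the counts most. At a −log10 q of at least 5 the members with a peak numbered 1 (control), 3 (knockdown), 1 (both), 0 (control only) and 2 (knockdown only). At a minimum of 2 they numbered 11, 16, 5, 6 and 11. Requiring an overlap of 50% of both peaks lowered the members with overlapping peaks from 17 to 10, and a gap of up to 1 kb left 17. The other alternatives (equal numbers of peaks, 1 kb, gene ends only, peaks near 1 gene only, and, chosen after seeing the data, without chromosome 1) kept each count within 1.5 times, from 22 to 28 in the control and 25 to 34 in the knockdown. The count expected from gene density was 15.8 and 19.5 with a window of 1000 kb and, chosen after seeing the data, 19.2 and 22.6 within chromosomes and 2 density classes. A cluster distance of 250 kb gave 24 members with a peak. No paired analysis was possible because each group holds 1 library. The number of peaks, mostly weak, and the single library per group limit all comparisons.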

Other observations

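Other zinc finger families off the ZNF naming were also measured. They were counted on all chromosomes, 19 included, while the ZNF members lie off chromosome 19, so the sets are not alike. Of 41 ZBTB genes, whose proteins carry a BTB domain beside their fingers, 5 had a control peak (12.2%, interval 4.08 to 26.2%). A knockdown peak was found at 7 (17.1%, interval 7.15 to 32.1%). The shares of the ZNF members were 11.8% and 14.8%. Both ZBTB intervals contain the shares over all genes (7.64% and 9.26%). ZBTB20, a repressor in liver and brain, had 4.05-fold enrichment in the control (−log10 q 4.35) and 4.90-fold in the knockdown (−log10 q 8.07). ZBTB16, the PLZF gene, had 4.49-fold and 4.02-fold, inside the gene and far from its ends. ZBTB11 had 3.13-fold and 2.92-fold, and ZBTB5 3.74-fold and 3.09-fold. ZBTB10 had a peak in the control only (3.44-fold), ZBTB37 in the knockdown only (3.25-fold), and ZBTB25 and ZBTB1 shared a 3.74-fold peak in the knockdown only. Of 21 ZSCAN genes, ZSCAN32 had a control peak alone (3.79-fold) and ZSCAN30 a knockdown peak alone (3.76-fold). Of 18 KLF genes KLF9 had one in both libraries (2.84-fold and 3.05-fold). Of 19 ZFP genes, ZFP91 had one in the knockdown (3.06-fold), and none of 7 ZKSCAN genes had one. For each of these families too, the intervals contain the shares over all genes. With 1 library per group these are values without a test.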
